A study of Bos taurus with 8 samples.

Results

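Bovine choroidal endothelial (BCE) cells, cultured from the vessel layer that lies behind the retina, were given leukemia inhibitory factor (LIF) at 10 ng/ml or vehicle for 6 h, and their RNA was sequenced to see which genes LIF raised or lowered. The members are the 4 libraries that the labels assign to BCE cells, of 8 in the series, with 2 libraries after LIF and 2 after vehicle. The other 4 come from bovine aortic endothelial (BAE) cells and are used only for the same genes side by side. BAE cells were given LIF or vehicle in 1% serum and had been maintained without bFGF and VEGF. Both BCE groups were primary cells from a commercial source, kept on fibronectin in low-glucose medium with 10% bovine calf serum, bFGF at 5 ng/ml and VEGF at 10 ng/ml, and then moved for 3 h to an assay medium with 10% serum for which neither factor is listed. LIF or vehicle (0.1% BSA in PBS) was added after those 3 h, so both groups were in full serum throughout. The study describes 2 individual samples for each group and does not say whether they came from separate animals or lots, so p-values cover the spread between these cultures.

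LIF is a cytokine of the interleukin-6 family. It binds a receptor made of LIFR and gp130 (encoded by IL6ST), whose Janus kinases phosphorylate the transcription factor STAT3, and STAT3 then enters the nucleus and binds its target genes. SOCS3 is among these targets and shuts the receptor off again, and acute phase regulators such as CEBPD and BCL3 are others. In the choroid, endothelial cells form the choriocapillaris, the fenestrated capillary bed that feeds the retinal pigment epithelium and photoreceptors. The study asked how the same cytokine acts on endothelial cells of different vessels.

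The counts summed to between 18600598 and 28806113 per BCE library. Levels are given as CPM, counts brought to a common total and scaled between the 4 libraries, in the order of library 1 and library 2, and a level of 3 counts corresponds to at most 0.161 CPM. CPM is not corrected for gene length, so levels are compared between libraries and never between genes. The table lists Ensembl identifiers, and only 111 of them have a gene name in the sources used here. All 111 had been called by the authors on these same libraries, so counts and medians over named genes describe the response and are no independent evidence of it. For the same reason the label of the cells could not be checked: of 15 endothelial markers chosen for this check 0 have a name, and of the 6 choriocapillaris markers only RGCC has one. In cultures measured as a whole, fewer cells of a kind and less RNA per cell cannot be told apart.

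After LIF, 120 of 13014 genes tested changed in BCE cells (0.922%) by edgeR's quasi-likelihood test at an adjusted p under 0.05. Of these, 90 rose (0.692%) and 30 fell (0.231%). Among the 105 of them with a name, 81 rose and 24 fell, the share to set beside the counts of each gene list below. The 2 vehicle libraries differed from each other more than the 2 LIF libraries did, by a median absolute difference in log2 CPM of 0.117 against 0.0851. Vehicle library 1 correlated most closely with LIF library 1 (r = 0.9950 across genes, which are not replicates), against 0.9931 with vehicle library 2. It was above vehicle library 2 in 60 of the 90 genes that rose and in 12 of the 30 that fell. With vehicle library 1 left out, 1423 genes passed, of which 728 rose and 695 fell, and with vehicle library 2 left out 477 passed, of which 282 rose and 195 fell. The count was 56 without LIF library 1, with 48 higher, and 55 without LIF library 2, with 46 higher. In a fit of 3 libraries the lone one is assumed to vary as much as the pair of the other group. All 120 genes kept their direction in each of these fits. Their LIF and vehicle libraries did not overlap, so leaving out 1 library could hardly change the direction, and this is no separate support.

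The changes of these 120 genes were small, and 75% of them were rises, a share that was 51.2% among the genes that passed without vehicle library 1 and 59.1% without vehicle library 2. Among the 90 genes that rose, the median log2 fold change was 0.56, 13 rose at least 2-fold and 49 rose by less than 1.5-fold. Among the 30 that fell, the median was -0.42, and 1 gene, GPRIN3, fell by at least 2-fold. Over all genes tested the median was -0.0049. Together the genes that rose took 0.833% of all CPM in vehicle and 1.23% after LIF, and the genes that fell took 0.536% in vehicle and 0.412% after LIF. For each of the 120 the LIF and vehicle libraries did not overlap, which held for 39.9% of all genes tested. The plot of changes against level shows the few genes that stood clear of the cloud.

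**Figure D1:**
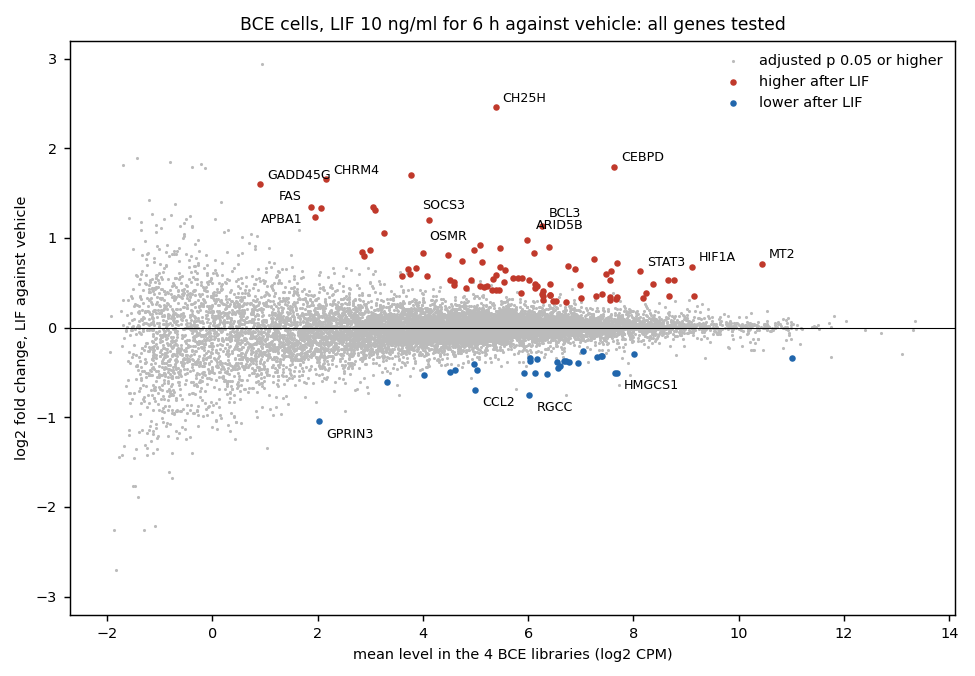
Each point is a gene tested in BCE cells, with the mean level of its 4 libraries on the horizontal axis (log2 CPM) and the log2 fold change after LIF on the vertical axis. Red points are the 90 genes that rose, blue points the 30 that fell and grey points those with an adjusted p of 0.05 or higher. CH25H and CEBPD stand highest among the red points, GPRIN3 lowest among the blue ones, and the grey points widen toward low levels.

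LIF raised a receptor of its own family, OSMR, and the transcription factor STAT3. OSMR, which pairs with gp130 to bind oncostatin M, a relative of LIF, stood at 24.2 and 22.6 CPM in the vehicle libraries and 43.1 and 45.5 CPM in the LIF libraries. Both LIF libraries were above both vehicle libraries, with no overlap, and the change was a 1.89-fold rise (log2 fold change 0.92, SE 0.0802, adjusted p = 0.000377). Of 15 listed ligands and receptors of the interleukin-6 family it is the only one with a name, so LIFR and IL6ST themselves are not described here. STAT3, the factor that LIF activates, stood at 223 and 213 CPM in the vehicle libraries and 335 and 339.9 CPM in the LIF libraries. The libraries of each group lay close together and the groups were far apart (log2 fold change 0.63, SE 0.0488, adjusted p = 0.000248). It is the 1 named gene of 10 listed JAK and STAT genes. IL4R, the receptor subunit shared by interleukin-4 and interleukin-13, stood at 166 and 132 CPM in the vehicle libraries and 236 and 227 CPM in the LIF libraries. Its vehicle libraries were uneven, and the lower LIF library was still far above the higher of them (log2 fold change 0.63, SE 0.088, adjusted p = 0.00805).

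SOCS3 and SOCS2, members of the same family of feedback inhibitors, moved in opposite directions. SOCS3, which binds gp130 and blocks the kinases there, stood at 10.8 and 10.1 CPM with vehicle and 24.6 and 23.7 CPM after LIF and rose 2.31-fold (log2 fold change 1.21, SE 0.0982, adjusted p = 0.000348). SOCS2, best known for restraining growth hormone signaling, stood at 38.4 and 36.7 CPM with vehicle and 25.8 and 28.7 CPM after LIF and fell by 27.8% (log2 fold change -0.47, SE 0.0843, adjusted p = 0.0335). IL7R, the receptor for interleukin-7, stood at 35.4 and 36.2 CPM with vehicle and 26.9 and 27.1 CPM after LIF and fell by 24.7% (log2 fold change -0.41, SE 0.0768, adjusted p = 0.0408). Without LIF library 1, SOCS2 and IL7R did not pass (adjusted p from 0.415 to 0.456), and without LIF library 2, SOCS2 and IL7R did not pass (adjusted p from 0.0644 to 0.30). The 4 that rose passed in both fits.

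**Figure D2:**
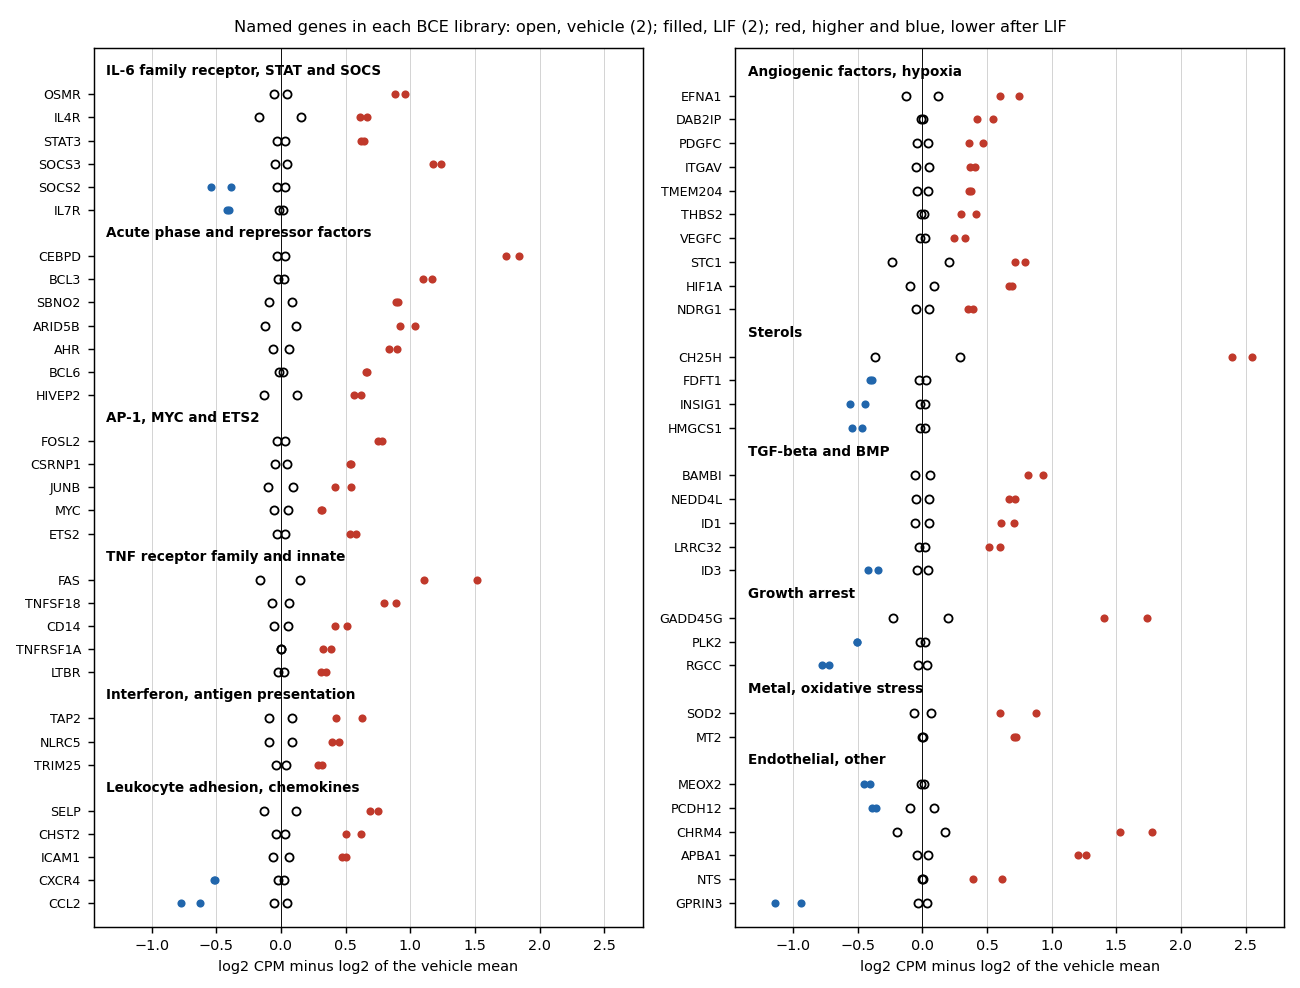
Each row is a named gene, and each point is 1 BCE library, placed by its log2 CPM minus the log2 of the gene's mean level in vehicle. Open points are the 2 vehicle libraries and filled points the 2 LIF libraries, red for genes that rose and blue for genes that fell. In every row the filled points lie to one side of the open ones. The rows of cholesterol synthesis genes lie to the left and those of the acute phase factors to the right.

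Regulators of the acute phase response, the early program that interleukin-6 cytokines start in the liver and in other tissues, were among the largest rises. CEBPD, a transcription factor of the C/EBP family, stood at 87.3 and 90.8 CPM with vehicle and 298 and 319.5 CPM after LIF. It rose 3.47-fold, far beyond the gap between the libraries of either group (log2 fold change 1.79, SE 0.0561, adjusted p = 3.04e-07). BCL3, a nuclear member of the I-kappa-B family that works with NF-kappa-B p50 and p52, stood at 48.7 and 47.1 CPM with vehicle and 108 and 103 CPM after LIF (log2 fold change 1.13, SE 0.0608, adjusted p = 2.65e-05). SBNO2, a helicase-like coregulator induced by STAT3 in several cell types, stood at 55.1 and 62.5 CPM with vehicle and 109 and 110.3 CPM after LIF (log2 fold change 0.90, SE 0.0687, adjusted p = 0.000248). In all 3 the lower LIF library was well above the higher vehicle library. BCL6, a zinc finger repressor, stood at 10.2 and 10.0 CPM with vehicle and 15.9 and 16.1 CPM after LIF and rose 1.58-fold (log2 fold change 0.66, adjusted p = 0.0169). HIVEP2, a large zinc finger protein that binds NF-kappa-B-like sites, stood at 36.4 and 30.6 CPM with vehicle and 51.4 and 49.7 CPM after LIF and rose 1.5-fold (log2 fold change 0.59, adjusted p = 0.0139).

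These belong to a list of 30 genes known as STAT3 targets, of which 16 have a name. All 16 of those rose and 0 fell, with a median log2 fold change of 0.72 and a range from 0.31 for MYC to 1.79 for CEBPD. The median over all genes was -0.0049, but the 16 have names because the authors had called them on these libraries. Among all 105 named genes that passed, 81 rose. The count and the median therefore describe the 16 and do not test the list. SOD2 and CD14, the 2 named of 26 listed acute phase genes, rose as well and are described with their groups. Without LIF library 1, BCL6 and HIVEP2 did not pass (adjusted p from 0.0517 to 0.0976), and without LIF library 2, BCL6 did not pass (adjusted p = 0.0781).

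ARID5B, a DNA-binding partner of the histone demethylase PHF2, stood at 45.9 and 39.0 CPM with vehicle and 87.2 and 80.3 CPM after LIF. It rose 1.97-fold with clear space between the groups (log2 fold change 0.98, SE 0.0842, adjusted p = 0.000358). AHR, the receptor for dioxins and tryptophan products that switches on xenobiotic metabolism, stood at 23.1 and 21.2 CPM with vehicle and 39.4 and 41.2 CPM after LIF and rose 1.82-fold (log2 fold change 0.86, SE 0.0832, adjusted p = 0.000741). MARCHF3, a membrane-bound ubiquitin ligase of endosomes, stood at 32.1 and 29.7 CPM with vehicle and 58.8 and 55.6 CPM after LIF (log2 fold change 0.89, SE 0.0747, adjusted p = 0.000348). All 3 passed with either LIF library left out.

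AP-1 members and MYC, the early response genes that growth signals share, rose by 1.24-fold to 1.7-fold. FOSL2, a Fos-related subunit of AP-1, stood at 115 and 110.5 CPM with vehicle and 194 and 189.7 CPM after LIF and rose 1.7-fold (log2 fold change 0.76, SE 0.052, adjusted p = 0.00012). JUNB, a Jun subunit of AP-1, stood at 113 and 98.4 CPM with vehicle and 154 and 141 CPM after LIF and rose 1.4-fold (log2 fold change 0.48, adjusted p = 0.0139). CSRNP1, a nuclear protein of the immediate early class, stood at 19.2 and 18.0 CPM with vehicle and 27.0 and 27.0 CPM after LIF (log2 fold change 0.54, adjusted p = 0.0217). MYC, the growth-promoting transcription factor, stood at 174 and 187 CPM with vehicle and 224 and 226 CPM after LIF. Its rise was 1.24-fold, small but larger than the gap within either group (log2 fold change 0.31, SE 0.0531, adjusted p = 0.0236). The 4 are the named ones of 22 listed AP-1 and immediate early genes, with a median log2 fold change of 0.51. ETS2, an ETS factor downstream of MAP kinases, stood at 49.1 and 46.8 CPM with vehicle and 69.4 and 71.5 CPM after LIF and was the 1 named gene of 17 listed for MAP kinase feedback (log2 fold change 0.55, adjusted p = 0.0026). In the absence of LIF library 1, JUNB, CSRNP1 and MYC did not pass (adjusted p from 0.0786 to 0.204), and without LIF library 2, CSRNP1 and MYC did not pass (adjusted p from 0.122 to 0.222).

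Receptors of the tumor necrosis factor family rose together with a ligand of that family. FAS, the death receptor, stood at 1.87 and 2.31 CPM with vehicle and 5.99 and 4.51 CPM after LIF and rose 2.55-fold (log2 fold change 1.35, SE 0.225, adjusted p = 0.023). Its LIF libraries differed from each other by more than its vehicle libraries did. TNFRSF1A, the main receptor for TNF, stood at 360.2 and 361 CPM with vehicle and 471 and 451 CPM after LIF and rose 1.28-fold, with vehicle libraries that hardly differed (log2 fold change 0.36, SE 0.0464, adjusted p = 0.00565). LTBR, the lymphotoxin beta receptor, stood at 116 and 112 CPM with vehicle and 141 and 145 CPM after LIF (log2 fold change 0.33, adjusted p = 0.0181). TNFSF18, the ligand of the T cell receptor GITR that endothelial cells can display, stood at 5.34 and 4.88 CPM with vehicle and 9.46 and 8.86 CPM after LIF (log2 fold change 0.84, adjusted p = 0.023). CD14, the coreceptor for bacterial lipopolysaccharide, stood at 19.5 and 21.1 CPM with vehicle and 29.0 and 27.2 CPM after LIF (log2 fold change 0.47, adjusted p = 0.0434). All 5 named of 28 listed genes of this group rose, with a median of 0.47, where 81 of the 105 named genes that passed rose. CD14 is also the 1 named gene of 8 leukocyte markers, and the part of other cells in its level was not tested. When the fit left out LIF library 1, FAS, TNFRSF1A, LTBR, TNFSF18 and CD14 did not pass (adjusted p from 0.117 to 0.463), and without LIF library 2, LTBR, TNFSF18 and CD14 did not pass (adjusted p from 0.0596 to 0.248).

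Among interferon and antigen presentation genes, 3 of 41 listed have a name and all 3 rose, where 81 of the 105 named genes that passed rose. TAP2, which carries peptides to MHC class I molecules, stood at 23.2 and 26.4 CPM with vehicle and 33.3 and 38.2 CPM after LIF (log2 fold change 0.53, adjusted p = 0.0401). NLRC5, the transactivator of MHC class I genes, stood at 32.0 and 36.1 CPM with vehicle and 46.4 and 44.8 CPM after LIF (log2 fold change 0.42, adjusted p = 0.0445). TRIM25, a ubiquitin ligase of the antiviral RIG-I pathway, stood at 84.9 and 80.3 CPM with vehicle and 103 and 101 CPM after LIF (log2 fold change 0.30, adjusted p = 0.0442). The rises of these 3 were from 1.23-fold to 1.44-fold, with adjusted p-values close under the threshold. In the fit without LIF library 1, NLRC5 and TRIM25 did not pass (adjusted p from 0.371 to 0.531), and without LIF library 2, TAP2, NLRC5 and TRIM25 did not pass (adjusted p from 0.158 to 0.316).

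Genes by which endothelium meets leukocytes were split. The adhesion molecules rose: SELP, or P-selectin, which catches rolling leukocytes, stood at 168 and 142 CPM with vehicle and 261 and 249 CPM after LIF and rose 1.64-fold (log2 fold change 0.72, SE 0.0742, adjusted p = 0.00117). ICAM1, which holds them by their integrins, stood at 74.2 and 67.9 CPM with vehicle and 98.8 and 101 CPM after LIF and rose 1.4-fold (log2 fold change 0.49, SE 0.0623, adjusted p = 0.0052). CHST2, a sulfotransferase that builds the sugars L-selectin binds, stood at 41.3 and 43.3 CPM with vehicle and 59.8 and 64.9 CPM after LIF (log2 fold change 0.56, adjusted p = 0.0052). The chemokine and the chemokine receptor fell: CCL2, which attracts monocytes, stood at 40.9 and 38.1 CPM with vehicle and 25.5 and 23.0 CPM after LIF and fell by 38.4% (log2 fold change -0.70, SE 0.086, adjusted p = 0.00411). CXCR4, the receptor for CXCL12 that tip cells of sprouting vessels carry, stood at 98.3 and 94.8 CPM with vehicle and 67.8 and 67.5 CPM after LIF and fell by 29.9% (log2 fold change -0.51, SE 0.0571, adjusted p = 0.00203). With IL7R, 3 rose and 3 fell of the 6 named among 26 listed genes, and their median was 0.04. Apart from IL7R, each passed without either LIF library.

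Of 44 listed angiogenic ligands, receptors and modulators, 9 have a name, of which 7 rose and 2 fell, with a median log2 fold change of 0.37. That is close to the share among all 105 named genes that passed, of which 81 rose and 24 fell. EFNA1, a membrane-bound ligand of Eph receptors, stood at 36.6 and 30.9 CPM with vehicle and 56.7 and 51.2 CPM after LIF and had the largest rise of the 7, at 1.6-fold (log2 fold change 0.68, SE 0.0932, adjusted p = 0.00805). PDGFC, a platelet-derived growth factor, stood at 64.7 and 68.8 CPM with vehicle and 85.5 and 92.4 CPM after LIF and rose 1.33-fold (log2 fold change 0.41, SE 0.065, adjusted p = 0.017). VEGFC, the ligand of VEGF receptor 3, stood at 93.8 and 96.0 CPM with vehicle and 119 and 112 CPM after LIF. Its rise of 1.22-fold had the highest adjusted p of all named genes that passed (log2 fold change 0.29, SE 0.0559, adjusted p = 0.0499), and it missed the threshold when 10 counts were required in every library (adjusted p = 0.0508). ITGAV, the integrin alpha V chain, stood at 272 and 253 CPM with vehicle and 338 and 348 CPM after LIF (log2 fold change 0.38, adjusted p = 0.00686). TMEM204, an endothelial membrane protein that modulates VEGF receptor signaling, stood at 72.4 and 76.7 CPM with vehicle and 96.6 and 95.6 CPM after LIF (log2 fold change 0.37, adjusted p = 0.0173).

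Not every gene of that list promotes vessel growth. THBS2, a matrix protein that restrains angiogenesis, stood at 491 and 501 CPM with vehicle and 610.4 and 661 CPM after LIF and rose 1.28-fold (log2 fold change 0.36, SE 0.0505, adjusted p = 0.00906). DAB2IP, a Ras GTPase-activating protein that limits VEGF receptor 2 signaling, stood at 58.4 and 57.8 CPM with vehicle and 84.8 and 77.8 CPM after LIF and rose 1.4-fold (log2 fold change 0.49, SE 0.0648, adjusted p = 0.00632). The 2 that fell were CXCR4 and RGCC. RGCC, a cell cycle regulator that is also a marker of the choriocapillaris, stood at 83.3 and 79.5 CPM with vehicle and 47.4 and 49.5 CPM after LIF. Both LIF libraries lay far below both vehicle libraries, and the gene fell by 40.6% (log2 fold change -0.75, SE 0.0634, adjusted p = 0.000348). After removal of LIF library 1, VEGFC, TMEM204 and DAB2IP did not pass (adjusted p from 0.10 to 0.768), and without LIF library 2, PDGFC, VEGFC, ITGAV, TMEM204 and THBS2 did not pass (adjusted p from 0.0676 to 0.212).

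HIF1A, the oxygen-sensitive transcription factor of the hypoxia response, stood at 450.0 and 395 CPM with vehicle and 682 and 672 CPM after LIF and rose 1.6-fold (log2 fold change 0.68, SE 0.0602, adjusted p = 0.000397). Its LIF libraries were close to each other, while vehicle library 1 was above vehicle library 2. STC1, a secreted glycoprotein induced by hypoxia, stood at 23.0 and 17.0 CPM with vehicle and 34.6 and 32.8 CPM after LIF and rose 1.68-fold (log2 fold change 0.75, SE 0.126, adjusted p = 0.0234). NDRG1, another hypoxia-induced gene, stood at 142 and 153 CPM with vehicle and 188 and 193 CPM after LIF (log2 fold change 0.37, adjusted p = 0.0114). They are the 3 named of 29 listed hypoxia genes. Without LIF library 1, NDRG1 did not pass (adjusted p = 0.0689), and without LIF library 2, NDRG1 did not pass (adjusted p = 0.12).

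**Figure D3:**
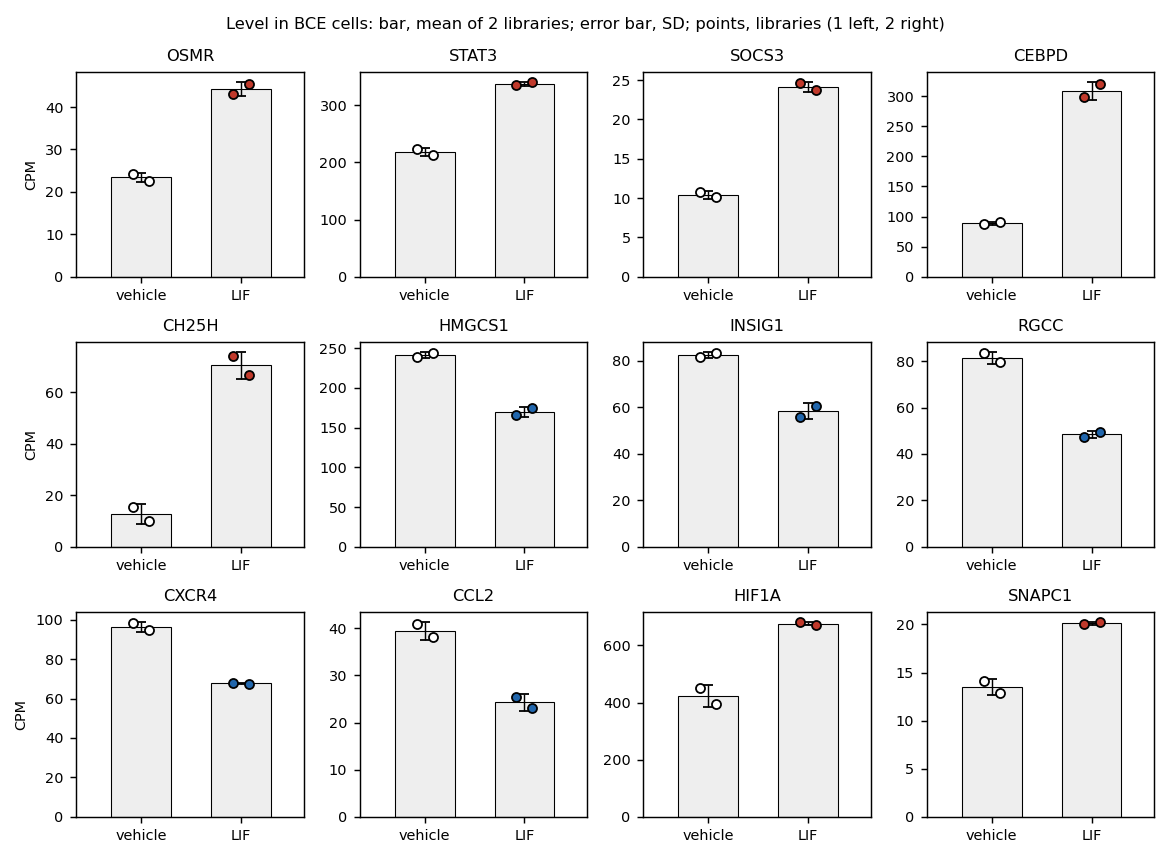
Each panel shows 1 gene on an axis of CPM that starts at 0. Bars are the means of 2 libraries, error bars the SD and points the libraries, open for vehicle, red for LIF where the gene rose and blue where it fell. The points of each gene lie near their bar, and the LIF points of HMGCS1, INSIG1, RGCC, CXCR4 and CCL2 sit below the vehicle points.

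Sterol genes gave the largest rise and a group of falls. CH25H, the enzyme that makes 25-hydroxycholesterol, an oxysterol that holds back the processing of SREBP factors and so the synthesis of cholesterol, stood at 15.6 and 9.84 CPM with vehicle and 74.2 and 66.8 CPM after LIF. Its vehicle libraries were unequal, and the lower LIF library was still far above the higher of them (5.49-fold, log2 fold change 2.46, SE 0.154, adjusted p = 6.87e-05). CH25H is the 1 named gene of 18 listed for fatty acids and the sterol receptor LXR. All 3 named of 26 listed genes of cholesterol synthesis and its control fell, with a median of -0.50. Of the 105 named genes that passed, 24 fell. HMGCS1, the synthase that feeds the pathway, stood at 238 and 244 CPM with vehicle and 166 and 174 CPM after LIF and fell by 29.6% (log2 fold change -0.51, SE 0.0509, adjusted p = 0.000974). INSIG1, the membrane protein that retains SREBP in the endoplasmic reticulum and is itself an SREBP target, stood at 81.4 and 83.5 CPM with vehicle and 55.8 and 60.7 CPM after LIF and fell by 29.4% (log2 fold change -0.50, SE 0.0645, adjusted p = 0.0052). FDFT1, or squalene synthase, stood at 136 and 142 CPM with vehicle and 105 and 106 CPM after LIF and fell by 24.0% (log2 fold change -0.40, SE 0.0528, adjusted p = 0.00632). Without LIF library 1, INSIG1 and FDFT1 did not pass (adjusted p from 0.0768 to 0.0971), and without LIF library 2, FDFT1 did not pass (adjusted p = 0.0644). VLDLR, a lipoprotein receptor that the list does not hold and that was chosen after its values were seen, went the other way, from 164 and 169 CPM to 210.1 and 212 CPM (log2 fold change 0.34, adjusted p = 0.0104), and did not pass without LIF library 1 or 2 (adjusted p = 0.124 and 0.144).

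Genes of the TGF-beta and BMP pathways rose in 5 and fell in 1 of the 6 named among 36 listed. Among all 105 named genes that passed, 81 rose and 24 fell. Several of those that rose are known to hold back or hold in store TGF-beta. BAMBI, a receptor look-alike without a kinase that blocks TGF-beta and BMP receptors, stood at 5.86 and 5.39 CPM with vehicle and 9.9 and 10.7 CPM after LIF and rose 1.83-fold (log2 fold change 0.87, SE 0.135, adjusted p = 0.0157). NEDD4L, a ubiquitin ligase that marks activated SMAD proteins for removal, stood at 85.1 and 79.4 CPM with vehicle and 131 and 135 CPM after LIF and rose 1.61-fold (log2 fold change 0.69, SE 0.0576, adjusted p = 0.000348). LRRC32, or GARP, which tethers latent TGF-beta to the cell surface, stood at 46.0 and 44.5 CPM with vehicle and 64.7 and 68.7 CPM after LIF (log2 fold change 0.56, adjusted p = 0.00344). The targets ID1 and ID3, related inhibitors of helix-loop-helix factors, moved apart. ID1 stood at 95.5 and 88.6 CPM with vehicle and 151 and 140.2 CPM after LIF and rose 1.58-fold (log2 fold change 0.66, SE 0.0612, adjusted p = 0.000579). ID3 stood at 127 and 119.5 CPM with vehicle and 97.0 and 92.0 CPM after LIF and fell by 23.2% (log2 fold change -0.38, SE 0.0577, adjusted p = 0.0139). ITGAV, which can release latent TGF-beta, is the fifth that rose. Without LIF library 1, ID3 did not pass (adjusted p = 0.0675), and without LIF library 2, BAMBI and ID3 did not pass (adjusted p from 0.0851 to 0.198).

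Genes linked to growth arrest did not move one way. GADD45G, a stress-induced arrest protein, stood at 0.797 and 1.07 CPM with vehicle and 3.11 and 2.47 CPM after LIF, which rests on 23 and 25 counts in the vehicle libraries and 78 and 46 counts in the LIF libraries. It rose 3.03-fold with a wide error (log2 fold change 1.60, SE 0.298, adjusted p = 0.0397). PLK2, a polo-like kinase induced by p53 and active at entry into S phase, stood at 232 and 239 CPM with vehicle and 165 and 166 CPM after LIF and fell by 29.7% (log2 fold change -0.51, SE 0.0484, adjusted p = 0.000688). RGCC, given above, fell too, so that 1 rose and 2 fell of the 3 named among 23 listed. None of 30 G1 and S phase genes and none of 30 G2 and M phase genes has a name, so the cell cycle itself was not analysed here. In the fit without LIF library 1, GADD45G did not pass (adjusted p = 0.441), and without LIF library 2, GADD45G did not pass (adjusted p = 0.0637). TP53BP2, the p53-binding protein ASPP2 and the 1 named gene of 29 listed apoptosis regulators, stood at 76.1 and 72.6 CPM with vehicle and 100.1 and 91.4 CPM after LIF (log2 fold change 0.37, adjusted p = 0.0295).

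MT2, a metallothionein that binds zinc and copper, stood at 1052 and 1045 CPM with vehicle and 1729.6 and 1712 CPM after LIF and rose 1.64-fold with the smallest SE of the named genes (log2 fold change 0.71, SE 0.0395, adjusted p = 2.65e-05). Metallothionein genes are near-identical copies of each other. How reads that fit several of them were counted is not given in the sources used here. The value may therefore lack such reads or hold reads of its copies. SOD2, the manganese superoxide dismutase of mitochondria, stood at 27.1 and 24.8 CPM with vehicle and 39.3 and 47.6 CPM after LIF and rose 1.67-fold (log2 fold change 0.74, SE 0.102, adjusted p = 0.00805). With AHR, all 3 named of 32 listed metal and oxidative stress genes rose, where 81 of the 105 named genes that passed rose. MAP1LC3B, the LC3 protein of autophagosomes and the 1 named gene of 24 listed lysosomal and autophagy genes, stood at 150.1 and 158 CPM with vehicle and 217 and 229 CPM after LIF (log2 fold change 0.53, SE 0.054, adjusted p = 0.00104). All 3 genes described here passed without either LIF library. Of 33 listed ribosome biogenesis and MYC target genes, GRPEL2, a mitochondrial chaperone partner, stood at 23.4 and 24.2 CPM with vehicle and 32.1 and 32.5 CPM after LIF (log2 fold change 0.44, adjusted p = 0.0349), and TARS1, the threonyl-tRNA synthetase, at 188 and 176 CPM with vehicle and 231 and 231 CPM after LIF (log2 fold change 0.34, adjusted p = 0.0139), while the nucleolar helicase DDX21 did not pass. In a fit without LIF library 1, GRPEL2, TARS1 and TP53BP2 did not pass (adjusted p from 0.139 to 0.495), and without LIF library 2, GRPEL2, TARS1 and TP53BP2 did not pass (adjusted p from 0.0559 to 0.259).

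CHRM4, APBA1, NTS and GPRIN3 belong to none of the gene lists. CHRM4, the muscarinic acetylcholine receptor M4, stood at 2.43 and 1.88 CPM with vehicle and 7.39 and 6.23 CPM after LIF and rose 3.14-fold (log2 fold change 1.65, SE 0.202, adjusted p = 0.00391). APBA1, an adaptor that binds the amyloid precursor protein, stood at 2.36 and 2.22 CPM with vehicle and 5.51 and 5.26 CPM after LIF and rose 2.35-fold (log2 fold change 1.23, SE 0.189, adjusted p = 0.0149). NTS, the precursor of the neuropeptide neurotensin, stood at 38.6 and 38.3 CPM with vehicle and 50.4 and 59.0 CPM after LIF, with LIF libraries that differed more than the vehicle ones (log2 fold change 0.50, SE 0.0839, adjusted p = 0.023). GPRIN3, a protein that binds G protein alpha subunits, stood at 5.34 and 5.6 CPM with vehicle and 2.48 and 2.85 CPM after LIF and fell by 51.6%, the largest fall of all genes that passed (log2 fold change -1.05, SE 0.187, adjusted p = 0.0335). The levels of CHRM4, APBA1 and GPRIN3 were a few CPM, and their errors are wide. With a fit that omits LIF library 1, APBA1 and GPRIN3 did not pass (adjusted p from 0.101 to 0.272), and without LIF library 2, NTS and GPRIN3 did not pass (adjusted p from 0.0714 to 0.22).

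The remaining large falls were in genes of several kinds. NUAK2, a kinase related to AMPK, stood at 18.4 and 20.1 CPM with vehicle and 13.1 and 13.5 CPM after LIF (log2 fold change -0.53, SE 0.101, adjusted p = 0.0445), and it was the 1 named gene among those that changed that did not pass in DESeq2's test. SLCO2B1, an organic anion transporter, stood at 69.0 and 72.9 CPM with vehicle and 46.4 and 53.9 CPM after LIF (log2 fold change -0.50, SE 0.0793, adjusted p = 0.017). RAPH1, or lamellipodin, which guides actin at the leading edge, stood at 26.6 and 27.0 CPM with vehicle and 19.8 and 18.3 CPM after LIF (log2 fold change -0.49, SE 0.0886, adjusted p = 0.0336). SNN, the small membrane protein stannin, stood at 28.0 and 28.6 CPM with vehicle and 19.5 and 21.4 CPM after LIF (log2 fold change -0.47, SE 0.0883, adjusted p = 0.0397). MEOX2, a homeobox factor of vascular cells, stood at 113 and 111 CPM with vehicle and 84.8 and 81.9 CPM after LIF (log2 fold change -0.43, SE 0.0546, adjusted p = 0.0052), and PCDH12, a protocadherin of endothelial junctions, at 108 and 123 CPM with vehicle and 88.3 and 90.1 CPM after LIF (log2 fold change -0.38, SE 0.0675, adjusted p = 0.0335). With TMEM204, they are the 3 named of 35 listed endothelial identity genes, of which 1 rose and 2 fell. In fits that leave out LIF library 1, NUAK2, SLCO2B1, RAPH1, SNN and PCDH12 did not pass (adjusted p from 0.133 to 0.515), and without LIF library 2, NUAK2, RAPH1, SNN, MEOX2 and PCDH12 did not pass (adjusted p from 0.0714 to 0.347).

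A further 32 named genes passed and lie outside the rule by which genes were named, and those given here were chosen after their values were seen. IRF2BPL, a nuclear partner of IRF2, had the lowest adjusted p among them and rose from 49.8 and 50.2 CPM to 88.2 and 89.5 CPM (log2 fold change 0.83, SE 0.059, adjusted p = 0.000152). PCDH18, a protocadherin, stood at 37.6 and 36.5 CPM with vehicle and 59.4 and 55.9 CPM after LIF (log2 fold change 0.64, SE 0.0699, adjusted p = 0.00181). SLC29A1, the nucleoside transporter that takes up adenosine, stood at 265 and 283 CPM with vehicle and 379 and 390.1 CPM after LIF (log2 fold change 0.49, SE 0.051, adjusted p = 0.00124). TBXAS1, thromboxane synthase, and LPCAT2, an enzyme of platelet-activating factor synthesis, rose with log2 fold changes of 0.46 and 0.46. SYBU, which links vesicles to kinesin, and CELF4, an RNA-binding protein, both best known from neurons, rose with log2 fold changes of 0.84 and 0.80. The endothelial genes BCL6B, a repressor related to BCL6, and THSD1, a membrane protein with a thrombospondin repeat, fell with log2 fold changes of -0.32 and -0.34. Without either LIF library IRF2BPL, PCDH18, SLC29A1 and SYBU passed, while TBXAS1, LPCAT2, CELF4, BCL6B and THSD1 did not pass without LIF library 1 or without LIF library 2. The other 6 of the 111 named genes did not pass. These were FAM241A, RGS3, FAM3C, SH3PXD2B, SWAP70 and DDX21, with log2 fold changes from 0.26 to 0.42 and adjusted p-values from 0.0560 to 0.0736 in the same test.

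Some of the named genes that passed are neighbours on the chromosome, by the gene order of RefSeq on the assembly ARS-UCD2.0, which is not the build of the counts. Of the 111 names 109 were found there, and 3 pairs had no other protein-coding gene between them. HIF1A lies next to SNAPC1, a subunit of the complex that starts small nuclear RNA genes, and SNAPC1 stood at 14.1 and 12.9 CPM with vehicle and 20.0 and 20.2 CPM after LIF (log2 fold change 0.57, SE 0.0985, adjusted p = 0.0262). CH25H lies next to FAS, with log2 fold changes of 2.46 and 1.35, and MAP1LC3B next to ZCCHC14, with 0.53 and 0.46. LTBR and TNFRSF1A have 1 gene between them and rose by 1.26-fold and 1.28-fold. ELF2, an ETS factor, and PCDH18 have 2 genes between them, with log2 fold changes of 0.38 and 0.64. Both genes of each of these pairs rose, where 81 of the 105 named genes that passed rose. How often genes tested lie this close was not counted, so the pairs are a description only. Whether strand was used in the counting is not given in the sources used here, so reads of genes that overlap cannot be assigned to one of them. SNAPC1, ZCCHC14 and ELF2 were named after their values were seen. Without LIF library 2, SNAPC1, ZCCHC14 and ELF2 did not pass, and without LIF library 1, SNAPC1 and ELF2 did not pass.

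Of the 120 genes that changed, 15 have no name, 9 that rose and 6 that fell, and 7 of these are transcribed units that the authors assembled outside the annotation. ENSBTAG00000038067 stood at 7.48 and 5.35 CPM with vehicle and 21.9 and 20.2 CPM after LIF (log2 fold change 1.70, SE 0.146, adjusted p = 0.000358), the third largest rise after CH25H and CEBPD. ENSBTAG00000013108 stood at 2.18 and 2.57 CPM with vehicle and 4.75 and 7.3 CPM after LIF (log2 fold change 1.33, SE 0.242, adjusted p = 0.0356). Among those that fell, ENSBTAG00000017346 stood at 12.2 and 11.8 CPM with vehicle and 7.67 and 8.11 CPM after LIF (log2 fold change -0.60, SE 0.118, adjusted p = 0.0488) and ENSBTAG00000012817 at 101 and 118 CPM with vehicle and 81.7 and 78.5 CPM after LIF (log2 fold change -0.45, SE 0.0746, adjusted p = 0.023). With each BCE library left out in turn, ENSBTAG00000038067 passed in all 4 fits, ENSBTAG00000013108 in 3 and each of the other 2 in 2. ENSBTAG00000017346 also missed the threshold in DESeq2's test and when no library could hold under 10 counts (adjusted p = 0.116 and 0.0535). In BAE cells ENSBTAG00000012817 rose instead (log2 fold change 0.90, adjusted p = 6.74e-10), and the difference was -1.32 (adjusted p = 5.05e-07). ENSBTAG00000013108 rose more there (log2 fold change 4.44), with a difference of -3.08 (adjusted p = 0.00146 in edgeR's interaction test). Its BAE vehicle libraries stood at 0.140 and 0.132 CPM, where 3 counts correspond to 0.0851 and 0.134 CPM. ENSBTAG00000038067 rose by 2.64 there, and its difference did not pass (adjusted p = 0.0629). ENSBTAG00000017346 was not tested in BAE cells.

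In BAE cells, which were given the same LIF dose in 1% serum and maintained without bFGF and VEGF, most of the same named genes moved the same way. The 2 cell types share no control libraries. Of the 81 named genes that rose in BCE cells, 78 were tested in BAE cells, where 74 rose (13.6% of all genes rose there) and 1 fell. Of the 24 that fell, 23 were tested in BAE cells, where 18 fell (8.55% of all genes fell there) and 1 rose. The difference between the LIF effects was tested as an interaction over all 8 libraries and passed in 48 of these 105 genes, where it passed in 3.68% of all genes. In 40 of the 48 the rise was larger in BAE cells. No BCE library was in 1% serum or from cells maintained without bFGF and VEGF, so the cell type cannot be told apart from its serum and these factors.

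PCDH18, BAMBI and NEDD4L rose more in BCE cells than in BAE cells, and RAPH1 and PLEKHG1 had lower values in BCE cells. PCDH18 rose in BCE cells and fell in BAE cells, where it stood at 50.7 and 53.9 CPM in the vehicle and 36.8 and 34.1 CPM in the LIF libraries of BAE cells, scaled among those 4 (log2 fold change -0.56, adjusted p = 1.43e-05 in edgeR's test). The difference was 1.23 in log2 (SE 0.0968, adjusted p = 1.45e-06). BAMBI stood at 4.53 and 3.99 CPM in the vehicle and 4.23 and 3.95 CPM in the LIF libraries of BAE cells, with no change that passed there, and differed by 0.97 (adjusted p = 0.0152). NEDD4L rose in both and more in BCE cells, by 0.43 (adjusted p = 0.00938). RAPH1 and PLEKHG1, a guanine nucleotide exchange factor chosen after its values were seen, fell in BCE cells and had log2 fold changes of 0.14 and 0.18 in BAE cells, with differences of -0.60 and -0.52 (adjusted p = 0.0285 and 0.00146). With each of the 8 libraries left out in turn, the differences of PCDH18 and PLEKHG1 passed in every fit. That of BAMBI did not pass without BCE LIF library 2, BAE vehicle library 1 or BAE LIF library 2 (adjusted p from 0.0718 to 0.103), and that of NEDD4L without BCE LIF library 2, BAE vehicle library 1 or BAE LIF library 1 (0.0676 to 0.0850). RAPH1 did not pass in 5 of the 8 fits.

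Other genes had close values in both cell types or a larger response in BAE cells. OSMR, HIF1A, CH25H, SELP and CXCR4 had log2 fold changes of 1.20, 0.62, 2.78, 0.89 and -0.48 in BAE cells, and their differences had adjusted p-values of 0.266 or higher, which does not show that the responses were equal. SOCS3 rose by 3.44 and CEBPD by 3.57 on the log2 scale in BAE cells, and the difference passed for both. INSIG1 and HMGCS1 fell more in BAE cells, with differences of 0.60 and 0.31 (adjusted p = 0.00377 and 0.0277), and HMGCS1 did not pass in 5 of the 8 fits that leave out a library. The difference of FDFT1 did not pass with all libraries (adjusted p = 0.182). SNAPC1 had a log2 fold change of -0.0030 in BAE cells while its neighbour HIF1A rose there, though the difference of SNAPC1 between the cell types did not pass (adjusted p = 0.108). STC1, SYBU, CELF4 and GPRIN3 had too few counts in BAE cells to be tested there.

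**Figure D4:**
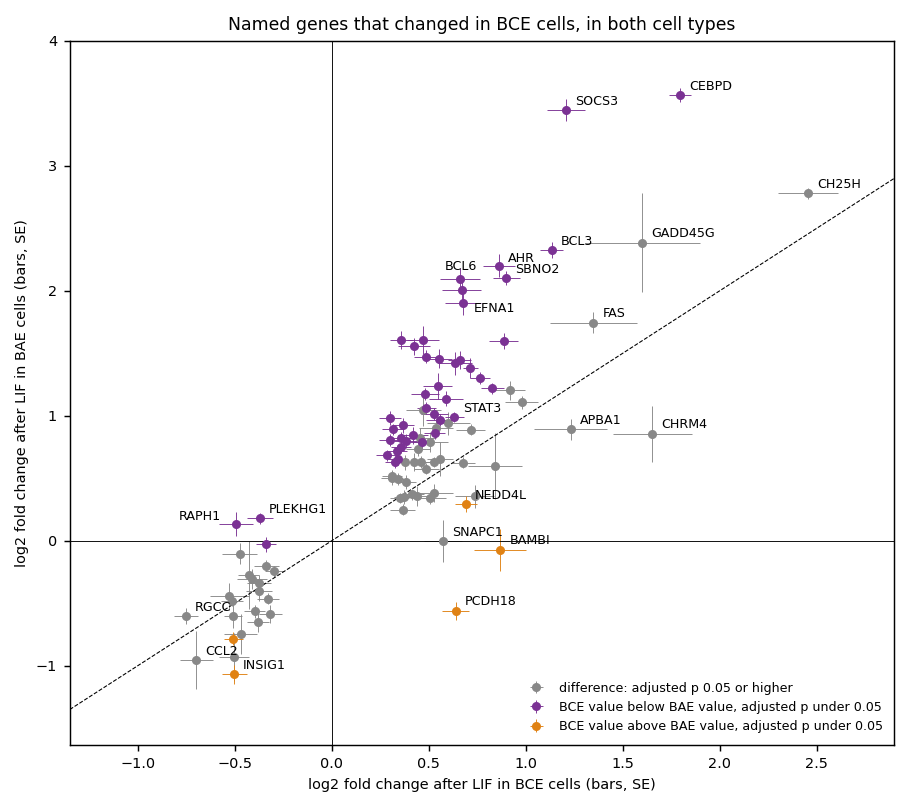
Each point is 1 of the 101 named genes that changed after LIF in BCE cells and had enough counts in BAE cells, with the log2 fold change after LIF in BCE cells on the horizontal axis and in BAE cells on the vertical axis, and bars for the SE. The dashed line marks equal values, and purple and orange points are genes whose difference passed the interaction test. Purple points lie above the line, SOCS3 and CEBPD farthest, and PCDH18 and BAMBI lie below it.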

How the data were processed

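RNA was measured by paired-end sequencing in 4 groups of 2 libraries, grouped by the titles of the samples. The authors aligned reads to the bovine genome (build UMD 3.1) with TopHat2 (version 2.0.12) and Bowtie2 (version 2.2.3), counted them on genes with HTSeq (version 0.6.1) and deposited the raw counts without normalization. A deposited table of BCE calls by DESeq (version 1.18.0) holds group means, log2 fold changes and p-values, which were not used, and gave gene names only. Its BAE counterpart has the same content and was not used.

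The BCE counts were fitted by edgeR (version 4.0.16, R version 4.3.3): filterByExpr (minimum count 10, total 15), TMM scaling, the quasi-likelihood test without a replicate block, and Benjamini-Hochberg adjustment over all genes tested at 0.05. SE values are the absolute log2 fold change divided by the square root of F. The same steps were run on the BAE libraries and, as an interaction, on all 8. Alternatives were DESeq2's size factors and test (version 1.42.0), no filter, 10 counts in every library, a replicate block, all 8 libraries, and each library left out.

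Genes named are the 15 largest rises and falls among genes that passed with non-overlapping groups, the genes the study names for BCE cells, and the members of the fixed lists that passed. The comparison, the lists and the markers were chosen with earlier results of these data known. A few genes are not reported here, which count in totals over genes but not in the lists or among the differences given one by one. Multiple mapping and strand use in counting are not given in the sources used here.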

Additional observations from a re-analysis of the deposited data

Results flagged for a closer look

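The genes below had LIF effects that differed between BCE and BAE cells by edgeR's interaction test over all 8 libraries, at an adjusted p under 0.05. They are 47 named genes that changed in BCE cells and 3 that did not pass there. Each value is the log2 fold change in BCE cells minus that in BAE cells. Serum, and bFGF and VEGF during maintenance, differed between the cell types in every library.

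Among receptor, STAT and SOCS genes the value was -2.21 for SOCS3, -0.76 for IL4R and -0.33 for STAT3. For transcription factors and coregulators it was -1.74 for CEBPD, -1.40 for BCL6, -1.31 for AHR, -1.17 for SBNO2, -1.16 for BCL3, -0.87 for ETS2, -0.76 for ID1, -0.66 for JUNB, -0.55 for MYC, -0.52 for HIVEP2, -0.51 for FOSL2, -0.38 for ELF2 and -0.36 for IRF2BPL. All of these rose in each cell type, with the larger rise in BAE cells.

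In immune and adhesion genes it was -1.10 for NLRC5, -1.10 for APOL3, -0.95 for ICAM1, -0.65 for TRIM25, -0.44 for TNFRSF1A, -0.38 for CHST2 and -0.27 for LTBR. In vessel genes it was -1.19 for EFNA1, -0.52 for TMEM204, -0.37 for VEGFC and -0.36 for THBS2. Transport, trafficking and cytoskeletal genes gave -1.30 for MTUS1, -1.21 for ARRDC3, -0.68 for MARCHF3, -0.66 for SLC23A2, -0.54 for SLC29A1, -0.46 for RAB11FIP1, -0.39 for ENTPD7 and -0.35 for SYNPO. Metabolic and other genes gave -0.63 for MT2, -0.48 for MIDN, -0.30 for MAP1LC3B, -0.29 for ZCCHC14 and -0.28 for TARS1. These too had the larger rise in BAE cells.

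Genes that rose more in BCE cells had values of 1.23 for PCDH18, 0.97 for BAMBI and 0.43 for NEDD4L. RAPH1 and PLEKHG1, which fell in BCE cells and had positive log2 fold changes in BAE cells, had values of -0.60 and -0.52. INSIG1 and HMGCS1, which fell in both and more in BAE cells, had values of 0.60 and 0.31. RGS3, DDX21 and SWAP70, which did not pass in BCE cells, had values of 0.49, -0.41 and -0.31.

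Of these 50 differences, 33 passed with each of the 8 libraries left out in turn, and 17 missed the threshold in at least 1 of these fits, with adjusted p-values from 0.0503 to 0.212. The 17 were BAMBI, CHST2, ELF2, ENTPD7, HIVEP2, HMGCS1, IL4R, LTBR, MAP1LC3B, NEDD4L, RAPH1, SWAP70, SYNPO, TARS1, THBS2, VEGFC and ZCCHC14. LTBR and ZCCHC14 also missed it in DESeq2's test (adjusted p = 0.0526 and 0.0720).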

How the results depend on the processing

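No gene named here reversed its direction under any alternative run. For the named genes that changed, the groups did not overlap, so leaving out a library could hardly reverse them. In BCE cells, 120 genes passed also with DESeq2's size factors, 148 with DESeq2's test and 117 with at least 10 counts in every library. Without a filter on low counts 437 genes passed, 257 higher and 180 lower, so the higher share was 58.8% against 75%. With all 8 libraries in 1 fit 217 passed, 153 higher and 64 lower. With the replicate number as a block 226 passed, 154 higher and 72 lower, and all 105 named genes that changed passed there too. The deviations of same-numbered libraries correlated at 0.132 over 2 pairs, and nothing in the labels ties the numbers together. The block takes the numbers of the sample titles. The numbers in the count columns differ from these and are shared by 1 of the 2 pairs only, library 2 of each group.

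With each library left out in turn, from 55 to 1423 genes passed, from 46 to 728 higher and from 8 to 695 lower. Without LIF library 1, 53 of the 120 genes were shared, and without LIF library 2, 52 were shared. These fits have 1 residual degree of freedom among samples and borrow the spread of the lone library from the other group. The causes were not tested. Of the named members of the gene lists 63 passed, from 35 to 64 with a library left out. NUAK2 alone of the named genes that changed did not pass in DESeq2's test, VEGFC with 10 counts in every library and CELF4 with all 8 libraries.

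The difference between the LIF effects passed in 502 genes, in 889 without the filter, in 669 with the block and in 261 to 948 with a library left out. A planned count of STAT motifs in promoters was not run, since no promoter sequence was used here. Depth limits GADD45G, CHRM4, APBA1, FAS and GPRIN3 most, whose levels were a few CPM.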
